A study of Komagataella phaffii with 13 samples.

Results

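The 8 genes described here come from the methylotrophic yeast Pichia pastoris (Komagataella phaffii) GS115. They were grouped under the unfolded protein response and protein folding in the endoplasmic reticulum (ER). The group includes a translocon subunit, an eIF2 kinase and its substrate, which concern protein entry and load. The genes were taken by their identifiers from the 5439 identifiers in the deposited expression file. All 8 were among the 5100 genes that averaged 1 FPKM or more and were tested. RNA was sequenced from a Mut+ GS115 strain that produced Aspergillus niger PhyA phytase from the AOX1 promoter with the alpha-mating factor secretion signal, and all 13 samples carried this construct. A library named B_10 stands for the yeast cell culture after 10 h on glycerol, G_3 for 3 h of glycerol feed and GM_2 for 2 h on glycerol mixed with methanol. Methanol induction was sampled 10 times, every 12 h between M_12 and M_120, and no condition was sequenced in replicate. The methods describe 1 industrial fermentation that was sampled in series, so the spread of the methanol libraries describes time and libraries and not separate cultures. B_10 is called a bench-scale batch in the sample labels, while the methods place the yeast cell culture in the production fermenter, so a difference of scale and one of phase cannot be told apart in comparisons with B_10. The labels also number the strain name upward through the methanol samples and describe an extraction from an animal tissue, and the methods were followed on both points. No culture without the phytase construct was analysed here, so the methanol feed and the load of secreted protein cannot be told apart.

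Secreted proteins enter the ER through a translocon, are held by the chaperone BiP (Kar2) and receive their disulfide bonds from protein disulfide isomerases (PDI). When unfolded protein accumulates, the membrane sensor Ire1, a kinase and endoribonuclease, cleaves the HAC1 mRNA, and the spliced form encodes the transcription factor that raises BiP, PDI and other folding genes in baker's yeast. Cells can also slow the load of new protein by phosphorylating the α subunit of the initiation factor eIF2, which the kinase Gcn2 does in baker's yeast and PERK does at the ER in animals. The values here are FPKM, fragments scaled to the length of the gene and by a factor for each library, and they count HAC1 mRNA without telling spliced from unspliced forms.

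The libraries held 23594590 to 42750724 fragments, recovered from the step size of low FPKM values. AOX1, the alcohol oxidase induced by methanol, had 11.3 FPKM in B_10, 928 FPKM in GM_2 and 18912 to 33180 FPKM in the methanol libraries, and the glycerol kinase GUT1 fell from 1572 FPKM in B_10 to 58.3 to 115 FPKM in methanol, so both followed the labelled feeds. Each of the 8 genes rested on at least 920 fragments in every library, and the counting error of a single value was at most 3.30%, for PDI (PAS_chr1-3_0125) in its shallowest library. Intervals given below are exact 95% Poisson intervals of the fragments. They cover counting error only, since duplicate reads are not independent molecules, and say nothing of differences between cultures. Fold changes are differences of log2(FPKM + 1), and a gene was called when it differed by at least 1, which is 2-fold. For methanol induction this had to hold in all 10 libraries. With 1 library a condition these calls carry no p-value.

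Among the 8 genes, HAC1 and Ire1 were at least 2-fold higher in GM_2 than in B_10, eIF2a was lower in GM_2, and eIF2a and the translocon subunit listed as Sec61 were lower in all 10 methanol libraries. BiP was not called in any phase, and neither were the PDI genes nor the eIF2 kinase listed as PERK. Of all 5100 genes tested, 9.69% were called higher and 7.02% lower in GM_2, so 2 higher and 1 lower of 8 are to be read beside those shares. In methanol induction none of the 8 was called higher (8.61% of all genes were) and 2 were called lower (5.53%). In the glycerol feed no gene of the 8 was called, against 2.47% of all genes called higher and 0.784% lower. The median of the 8 genes against B_10 was −0.075 in G_3, 0.036 in GM_2 and 0.21 in methanol induction, beside medians of 0.0013, 0.040 and −0.011 over all genes. Against GM_2 none of the 8 was called in methanol induction, beside 4.39% of all genes called higher and 4% lower. With G_3 as the reference, Ire1 was the only gene of the 8 called, higher in GM_2 (6.71% of all genes higher, 5.24% lower), and none was called in methanol induction (5.82% higher, 3.16% lower). In 7 of the 8 genes every methanol library lay on the same side of B_10, BiP being the exception, and 76.3% of all genes were separated in this way. From GM_2 the methanol libraries of 3 of the 8 were separated, those of Ire1, Sec61 and PERK, beside 67.8% of all genes. For PERK the smallest difference was 0.027, in M_24. The Poisson intervals of PERK in M_24, M_12 and M_120 overlap that of GM_2. The 20 genes of largest FPKM took a smaller share of the summed FPKM in B_10 (14.0%) than under methanol (17.4 to 22.1%). Rescaling each library without them raised the median of all genes against B_10 from −0.011 to 0.24 in methanol induction, from 0.040 to 0.20 in GM_2 and from 0.0013 to 0.14 in G_3. Under that scaling HAC1 was called higher in methanol induction and neither eIF2a nor Sec61 was called lower in it or in GM_2.

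**Figure D1:**
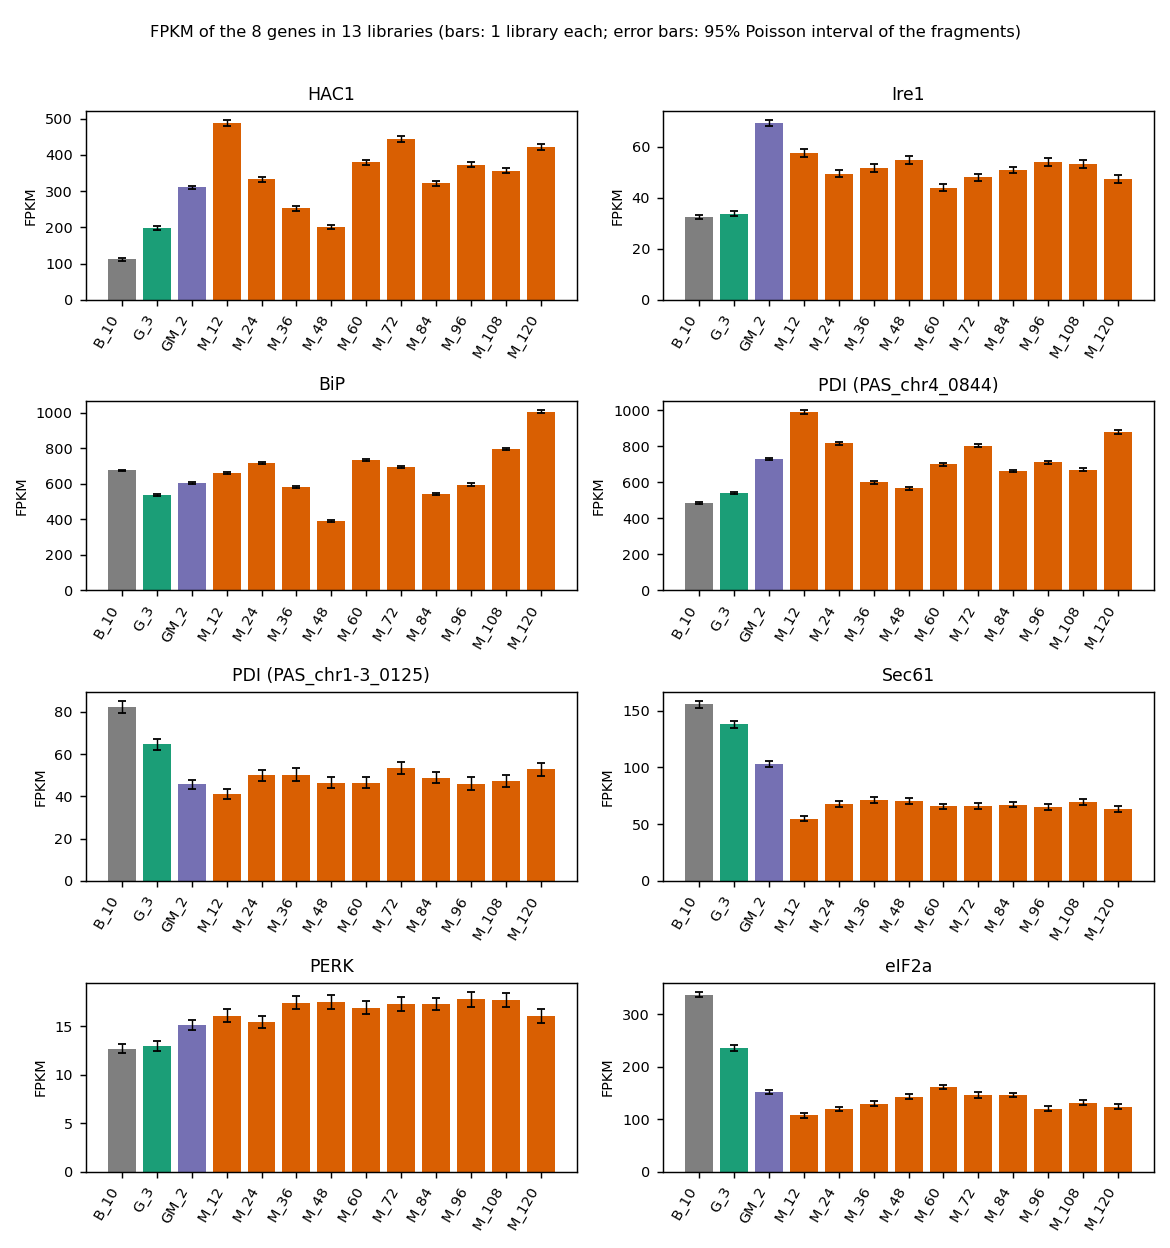
FPKM (y axis, from 0, separate scale for each gene) of the 8 genes in the 13 libraries (x axis), with 1 bar for each library and 95% Poisson intervals of the fragments as error bars. HAC1 went from 112 FPKM in B_10 to 489 FPKM in M_12 with a low of 200 FPKM in M_48, while eIF2a went from 337.6 FPKM in B_10 to 107 FPKM in M_12.

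HAC1 (PAS_chr1-1_0381), the transcription factor of the response, had 112 FPKM in B_10, 198 FPKM in G_3 and 310 FPKM in GM_2. Its methanol values ranged from 200 FPKM in M_48 to 489 FPKM in M_12, with a median of 365 FPKM. All 12 later libraries thus lay above B_10, and the lowest methanol library was level with the glycerol feed, its Poisson interval overlapping that of G_3. The log2 fold change against B_10 was 0.82 in G_3 and 1.47 in GM_2. In methanol induction it had a median of 1.70 (0.84 to 2.12, SD 0.38 over 10 libraries), which 94.1% of all genes lay below. It passed 2-fold in 9 of the 10 libraries and missed only in M_48, so that the gene was not called. Without M_48 it was called higher. Against GM_2, 8 of the 10 methanol libraries were higher and M_48 and M_36 were lower, from −0.63 to 0.66. Most of the distance from B_10 was therefore already present at 2 h of the mixed feed.

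Ire1 (PAS_chr3_1104), the sensor that splices HAC1, had 32.4 FPKM in B_10 and 33.8 FPKM in G_3, values whose Poisson intervals overlap. It was highest of all 13 libraries in GM_2, with 69.2 FPKM. The methanol libraries lay between 43.9 FPKM in M_60 and 57.4 FPKM in M_12, with a median of 51.2 FPKM, so every methanol library was above B_10 and G_3 and below GM_2. The log2 fold change against B_10 was 1.07 in GM_2 and 0.65 in methanol induction (0.43 to 0.81, SD 0.11 over 10 libraries). With a pseudocount of 5 the value in GM_2 fell short of 2-fold, and HAC1 alone was then called higher there. HAC1 and its sensor therefore differed in the order of their phases, HAC1 being higher in G_3 than in B_10 and Ire1 not. The ratio of HAC1 to Ire1 FPKM was 3.44 in B_10, 5.87 in G_3, 4.48 in GM_2 and 3.66 (M_48) to 9.24 (M_72) in methanol induction.

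BiP (PAS_chr2-1_0140), the main Hsp70 chaperone of the ER lumen, had 675 FPKM in B_10, 536 FPKM in G_3 and 603 FPKM in GM_2. Over the methanol libraries it went from 391 FPKM in M_48 to 1004 FPKM in M_120, with a median of 677 FPKM that was level with B_10. These methanol libraries lay on both sides of B_10, 5 above and 5 below. The log2 fold change had a median of 0.0056 (−0.79 to 0.57, SD 0.36 over 10 libraries). After the rescaling without the 20 largest genes the median was 0.30 (−0.48 to 0.71), beside 0.24 for all genes. The level median thus holds for the deposited scaling. In GM_2 the log2 fold change was −0.16, and 0.0060 after the rescaling, so no direction can be given there. M_120 was the highest of all 13 libraries and M_48 the lowest.

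The genes of the PDI family differed from B_10 in opposite directions, neither of them by 2-fold in all methanol libraries. PAS_chr4_0844, described as the multifunctional PDI of the ER lumen, had 486 FPKM in B_10, 541 FPKM in G_3 and 728 FPKM in GM_2. Under methanol it lay between 566 FPKM in M_48 and 990 FPKM in M_12, with a median of 705 FPKM, and all 10 libraries were above B_10 and G_3. Its log2 fold change was 0.58 in GM_2 and 0.54 in methanol induction (0.22 to 1.03, SD 0.25 over 10 libraries), past 2-fold in M_12 only. Against GM_2 its median was −0.046, which became 0.0057 after the rescaling, and 4 of the 10 libraries were higher. The second member, PAS_chr1-3_0125, described only as belonging to the PDI family, had 82.2 FPKM in B_10, 64.5 FPKM in G_3 and 45.8 FPKM in GM_2. Under methanol it stayed between 41.0 FPKM in M_12 and 53.2 FPKM in M_72, with a median of 48.0 FPKM, below B_10 and G_3 in all 10 libraries. Its log2 fold change was −0.83 in GM_2 and −0.76 in methanol induction (−0.99 to −0.62, SD 0.11 over 10 libraries), short of 2-fold in every library. The ratio of the first gene to the second was 5.91 in B_10, 8.38 in G_3 and 15.9 in GM_2. It reached 24.2 in M_12 and was 11.9 to 16.7 in the later methanol libraries. This ratio is taken within a library and does not depend on its scaling.

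The translocon gene PAS_chr1-4_0629 is listed as Sec61 and described as a subunit of the Ssh1 translocon complex, in baker's yeast a second ER channel beside the Sec61 channel itself. It had 155 FPKM in B_10, 138 FPKM in G_3 and 103 FPKM in GM_2. The methanol libraries lay between 54.9 FPKM in M_12 and 71.5 FPKM in M_36, with a median of 66.5 FPKM. All methanol libraries were below the 3 earlier ones. The log2 fold change was −0.17 in G_3, −0.59 in GM_2 and −1.21 in methanol induction (−1.48 to −1.11, SD 0.11 over 10 libraries). Against GM_2 it was −0.63 (−0.90 to −0.52), the only gene of the 8 whose methanol libraries were all lower than GM_2 by at least 0.5. After the rescaling this was −0.53 (−0.73 to −0.41), so not every library was then lower than GM_2 by 0.5. Against B_10 the rescaled median in methanol induction was −0.95, short of 2-fold.

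The kinase gene PAS_chr3_0850, listed as PERK and described by its substrate Sui2, the eIF2 α subunit, was the least abundant of the 8. It had 12.7 FPKM in B_10 and 12.9 FPKM in G_3, not distinguishable by counting error, and 15.1 FPKM in GM_2. The methanol values lay between 15.4 FPKM in M_24 and 17.8 FPKM in M_96, with a median of 17.2 FPKM. The log2 fold change of 0.42 (0.26 to 0.46, SD 0.067 over 10 libraries) was positive in all 10 libraries. Only 3.47% of all genes had a smaller SD over the methanol libraries. In the order of its 13 values, 11 of the 12 neighbouring pairs had overlapping Poisson intervals.

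The substrate eIF2a (PAS_chr3_0077), the α subunit of the factor that brings the initiator tRNA to the ribosome, was lower in methanol induction by more than any other of the 8 when B_10 was the reference, while against G_3 and GM_2 the median of Sec61 was lower (−1.04 against −0.85, and −0.63 against −0.22). It had 337.6 FPKM in B_10, 236 FPKM in G_3 and 152 FPKM in GM_2. In methanol induction it lay between 107 FPKM in M_12 and 161 FPKM in M_60, with a median of 130 FPKM, and all 10 libraries were below B_10 and G_3. The log2 fold change was −0.52 in G_3, −1.15 in GM_2 and −1.37 in methanol induction (−1.65 to −1.06, SD 0.18 over 10 libraries), and 5.14% of all genes lay below the last value. After the rescaling it was −0.98 in GM_2 and −1.11 in methanol induction, where 4 of the 10 libraries fell short of 2-fold, M_60 at −0.86 being the nearest to 0. With G_3 as reference the medians were −0.63 in GM_2 and −0.85 in methanol induction, and eIF2a was not called in either. The ratio of eIF2a to its kinase was 26.6 in B_10, 18.3 in G_3, 10.1 in GM_2 and 6.66 (M_12) to 9.54 (M_60) in methanol induction.

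**Figure D2:**
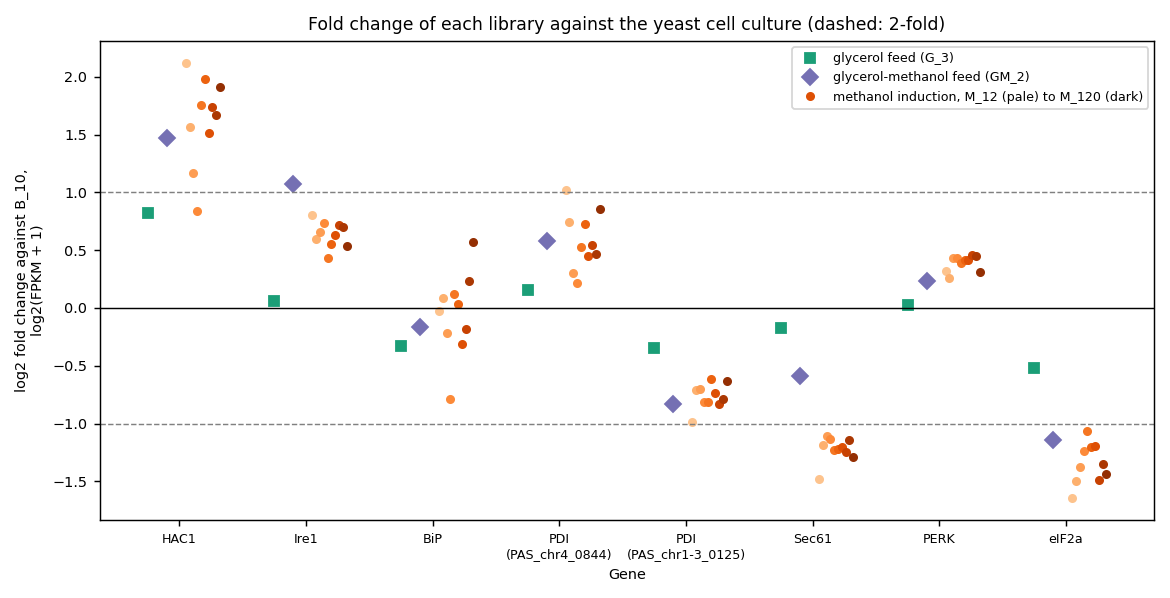
Log2 fold change of each library against B_10 on the log2(FPKM + 1) scale (y axis) for the 8 genes (x axis), with G_3 as squares, GM_2 as diamonds, the 10 methanol libraries as circles from M_12 (pale) to M_120 (dark), and dashed lines at 2-fold. Sec61 and eIF2a lay past −1 in all 10 methanol libraries, HAC1 past 1 in 9, and BiP on both sides of 0.

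Within methanol induction, HAC1, BiP and PDI (PAS_chr4_0844) varied most among the 8 genes. Their SD on the log2 scale was 0.38, 0.36 and 0.25, larger than that of 92.6, 91.5 and 80.9% of all genes. Ire1, PDI (PAS_chr1-3_0125) and Sec61 had SDs of 0.11, 0.11 and 0.11, and eIF2a had 0.18, larger than that of 60.6% of all genes. It was tested with limma whether each gene changed in proportion to the hours, and separately whether the ends of the induction differed from its middle. No gene of the 8 had a linear trend, the change from 12 to 120 h lying between −0.087 for Ire1 (standard error 0.11) and 0.44 for BiP (standard error 0.31), with adjusted p from 0.405 to 0.866 by limma. None had an unadjusted p under 0.05 either, while of all genes 4.88% rose, 2.80% fell (adjusted) and 25.4% had an unadjusted p under 0.05. For the curvature no gene of the 8 passed (0.588 and 2.06% of all genes did, with higher and with lower ends), and 3 of the 8 had an unadjusted p under 0.05, beside 22.0% of all genes. The ends lay above the middle by 0.53 for BiP (standard error 0.23, adjusted p = 0.201 by limma) and by 0.45 for PDI (PAS_chr4_0844) (standard error 0.17, adjusted p = 0.145 by limma), and below it by −0.38 for eIF2a (standard error 0.097, adjusted p = 0.0643 by limma). Without M_96 the curvature of eIF2a was −0.40 and passed (adjusted p = 0.0306 by limma, from 0.0306 to 0.263 over the 10 fits that leave out 1 library). The 5 libraries from 72 h did not differ from the 5 up to 60 h for any of the 8 genes beyond the threshold (adjusted p from 0.526 to 0.958 by limma, 2.37% of all genes called).

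HAC1 and BiP made their largest step from M_48 to M_60, after a low at 48 h, and this step was picked out after its values had been seen. From M_36 to M_48 HAC1 went from 252 to 200 FPKM. Over the same step BiP went from 580 to 391 FPKM, a log2 step of −0.57, and 0.843% of all genes had a step at least as far down. From M_48 to M_60 HAC1 went up to 379 FPKM, a log2 step of 0.92. BiP went up to 734 FPKM, a step of 0.91. A step at least as far up was made by 1.22% of all genes for HAC1 and 1.31% for BiP. PDI (PAS_chr4_0844) went from 566 to 700 FPKM over this step, 0.31 on the log2 scale, which 14.2% of all genes matched or exceeded. All 3 genes were at their methanol minimum in M_48, where 5.31% of all genes were. M_48 held 27603250 fragments, near the median of 29051532 over the 13 libraries, and 323 identifiers at 0, which was the median. Ire1 had 54.6 FPKM in M_48, its second highest methanol value, and dropped to its lowest, 43.9 FPKM, in M_60.

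A second descent followed from M_72 to M_84, where HAC1 went from 443 to 321 FPKM, BiP from 692.9 to 544 FPKM and PDI (PAS_chr4_0844) from 804 to 662 FPKM. Steps at least this far down were made by 1.96, 3.61 and 5.94% of all genes. At the end of the induction, M_120 held the highest BiP value of the 10 methanol libraries, the second highest of either PDI gene and the third highest of HAC1. Of all genes, 38.2% had M_120 among their 3 highest methanol libraries, beside 4 of the 8 genes here, and 20.3% had their highest value there, as BiP did. The other genes did not share this. Ire1, Sec61 and PERK had their second lowest methanol value in M_120, and eIF2a ranked the seventh. M_12, the first methanol library, held the highest value of HAC1, Ire1 and PDI (PAS_chr4_0844) and the lowest of PDI (PAS_chr1-3_0125), Sec61 and eIF2a. For 50.2% of all genes M_12 was the highest (24.0%) or the lowest (26.3%) methanol library.

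**Figure D3:**
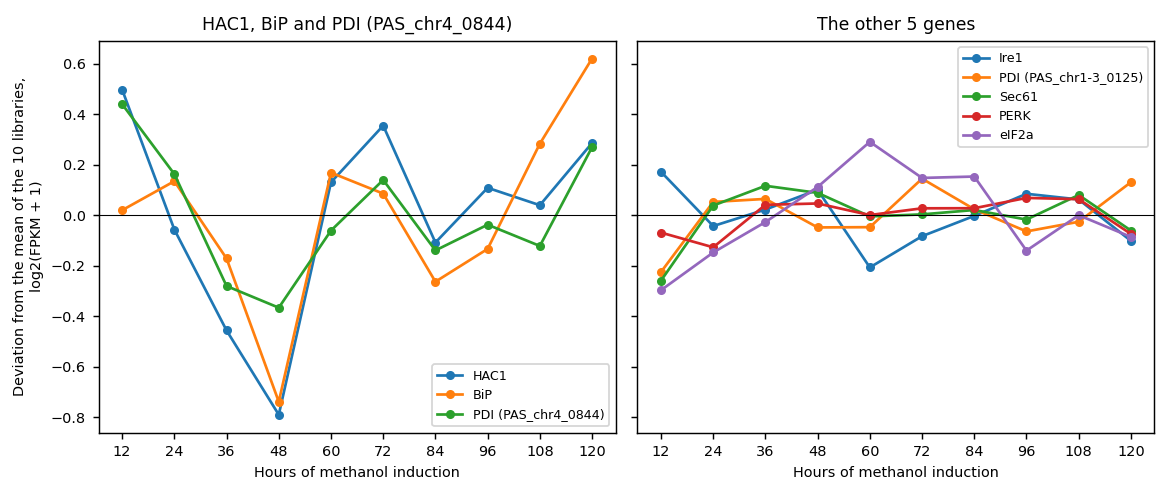
Deviation of each library from the gene's mean over the 10 methanol libraries on the log2(FPKM + 1) scale (y axis) against the hours of methanol induction (x axis), with 1 point for each library. HAC1, BiP and PDI (PAS_chr4_0844) were all lowest at 48 h (left), and the other 5 genes stayed within a narrower band (right).

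HAC1 and PDI (PAS_chr4_0844) had the closest profiles of the 28 pairs. Pearson's r of log2(FPKM + 1) over the 10 methanol libraries was 0.867 and Spearman's rho was 0.842, and both genes went the same way in all 9 steps between neighbouring libraries, as 0.883% of all genes did with HAC1. The relation remained without M_12 and M_120, the first and the last library (r = 0.828), and lay between 0.835 and 0.904 when any 1 library was left out. Of the 4975 other genes whose mean reached 10 FPKM, PDI (PAS_chr4_0844) ranked 12 by its r with HAC1, and BiP ranked 70. HAC1 and BiP had r = 0.732 and rho = 0.576, with r = 0.445 without M_48, so that this value rests in part on 1 library. BiP and PDI (PAS_chr4_0844) had r = 0.643, which was 0.459 without M_48 and 0.803 without M_12. All 3 genes went the same way in 6 of the 9 steps. These correlations are descriptions without a p-value, since the points are serial samples of 1 culture, and all genes of a library share its depth and scaling. Of all pairs of genes tested, 5.88% had r of at least 0.7, and 2 of the 28 pairs here did.

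HAC1 and its sensor Ire1 had r = −0.194 (rho = −0.212), from −0.583 without M_12 to 0.050 without M_48. The PDI genes had r = −0.124, which turned to 0.610 without M_12, so 1 library set the sign of either value. Ire1 and PERK went the same way in all 9 steps, as 1.59% of all genes did with Ire1, although their r was 0.208. For PERK the Poisson intervals of neighbouring methanol libraries overlapped in most steps, such as that from M_72 (17.233 FPKM) to M_84 (17.237 FPKM). They were apart only from M_24 to M_36 and from M_108 to M_120. The signs of all its other steps are not resolved, so its agreement with Ire1 in sign is largely unresolved too. The translocon gene listed as Sec61 ran against HAC1 (r = −0.741, rho = −0.855) and against PDI (PAS_chr4_0844) (r = −0.840, rho = −0.806). Without any 1 library the former lay between −0.802 and −0.693 and the latter between −0.899 and −0.773, and without M_12 and M_120 they were −0.753 and −0.658. With the rescaling without the 20 largest genes they were −0.781 and −0.675. PERK and PDI (PAS_chr4_0844) had r = −0.727, which became −0.295 after the rescaling without the 20 largest genes, and that of Ire1 and PERK became 0.720. Of all pairs of genes, 5.61% had r of at most −0.7, beside 3 of the 28 pairs here, and the range of Sec61 and PERK over the methanol libraries was small, 1.30-fold and 1.15-fold from the lowest to the highest.

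**Figure D4:**
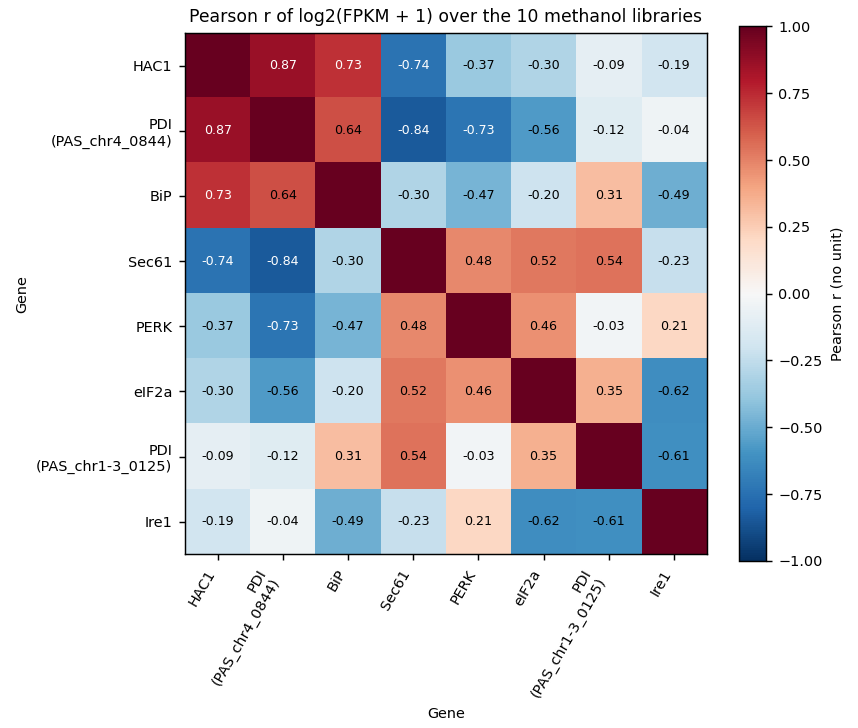
Pearson's r of log2(FPKM + 1) over the 10 methanol libraries for each pair of the 8 genes (both axes), from −1 in blue to 1 in red. HAC1, PDI (PAS_chr4_0844) and BiP form a block of positive values, and Sec61 is negative with all 3.

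The genes with the most similar methanol profiles were mostly without a name in the sources used. Those sources named only 128 genes by description, so the lack of a name is no trait of these partners. Of the 3 closest genes for each of the 8, 24 in all, 1 had one, the proposed transcriptional activator Prm1 with r = 0.872 to PDI (PAS_chr1-3_0125). A single unnamed gene was the closest both to HAC1 (r = 0.954) and to PDI (PAS_chr4_0844) (r = 0.941).

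The study lists 12 further genes with these 8 for ER-associated degradation (ERAD) and cytosolic chaperones. It does not state how they were chosen, and it describes them with these samples, so their counts are no independent evidence. Against B_10, 1 of the 12 was called higher in methanol induction, the ubiquitin ligase Hrd1 (PAS_chr4_0444) at 1.31 (1.21 to 1.63 over 10 libraries), and none lower, beside 8.61 and 5.53% of all genes. The cytosolic chaperones Hsp70 and Hsp90 were already called lower in G_3, at −1.25 and −1.12, where 0.784% of all genes were, although Hsp90 fell short of 2-fold there after the rescaling (−0.98). In GM_2 they were again the 2 called lower, at −1.84 and −1.82 (7.02% of all genes). With the deposited scaling none was called higher in either feed. With the rescaling Hrd1 (PAS_chr4_0444) and another gene listed as Hrd1, PAS_chr4_0156, passed 2-fold upward in GM_2 (1.08 and 1.02). Png1, also of the 12, then passed in all 10 methanol libraries (1.10 to 1.37). Against GM_2, Png1 was called higher in methanol induction with the deposited scaling (1.30 to 1.64), beside 4.39% of all genes. These genes are named after their values were seen, as are Ubc7 and Hrd3. Their median in methanol induction was 0.30, beside 0.21 for the 8 genes and −0.011 for all genes. Of the 12, 7 had an unadjusted p under 0.05 for the linear trend by limma, in both directions, beside 25.4% of all genes. After adjustment only Ubc7, a ubiquitin-conjugating enzyme, had a linear trend with all 10 libraries and the deposited scaling, 0.58 from 12 to 120 h (standard error 0.12, adjusted p = 0.0184 by limma). Its call was lost with the rescaling (0.43, adjusted p = 0.0537 by limma) and without M_120 (0.56, adjusted p = 0.0791 by limma). With the rescaling Hrd3, a partner of the ligase Hrd1, passed instead, at −0.57 (adjusted p = 0.0328 by limma), as it did without M_60 (−0.42, adjusted p = 0.0493 by limma). Without M_36 Hsp70 and Hsp90 also passed, at 2.15 and 1.15 (adjusted p = 0.0414 and 0.0454 by limma). Over the methanol libraries the r of the 12 genes with HAC1 lay between −0.057 for Hsp70 and 0.639 for Hrd1 (PAS_chr4_0444). No gene of the 12 came as close to HAC1 as PDI (PAS_chr4_0844) did.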

How the data were processed

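Reads were mapped by the authors with Hisat2 (2.0.5), and they deposited FPKM, 1 value per gene in every library. Genome build and counting tool: not given in the sources used here. The median ratio of genes to their mean was the same in all libraries of the deposited FPKM, so a median-ratio scaling would leave them as they are. FPKM multiplied by gene length comes in steps of 1 fragment, which gave the depth; of the values under 200 fragments, 86.4 to 96.1% in each library were whole to 0.01. Lengths came from RefSeq (5040 of 5439 identifiers matched by locus tag). For PDI (PAS_chr4_0844) the fragments were whole at 1416 bases, not at the annotated span of 1555. No annotated gene overlapped the 8 genes.

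Tests used log2(FPKM + 1) of 5100 genes, those averaging 1 FPKM or more. Changes over the methanol hours were tested with limma 3.58.1 in R 4.3.3 (empirical Bayes with trend, Benjamini-Hochberg over all genes, threshold 0.05). The method had been tried on simulated data with independent noise in each library, which cannot show its error rate for serial samples of 1 culture. Other steps ran in Python 3.11.15 with pandas 2.3.3, numpy 2.4.6, matplotlib 3.10.9 and scipy 1.17.1. The text names the 8 genes, AOX1 and GUT1, the 3 closest profiles of each gene where named, and the called genes of the ERAD list (at most 2 in each direction). The members, lists and tests were chosen with earlier results of these data known. Lists of further ER, glycosylation and initiation genes by product text could not be filled. The authors' supplementary fold changes and p-values were not used. Alternatives changed the pseudocount, the filter on low values, the threshold, the reference library, the scaling, the limma settings and the libraries.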

Additional observations from a re-analysis of the deposited data

Results flagged for a closer look

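The value of the translocon gene listed as Sec61 in M_12, 54.9 FPKM, stood apart from the other methanol libraries. Its gap to the next value, 63.1 FPKM in M_120, was 0.496 of the whole range, above Dixon's 95% critical value for 10 samples. Both ends of 8 genes were examined, 16 gaps in all, and among independent samples chance alone passes this limit in about 1 of 20 groups. These libraries are serial samples of 1 culture, so that rate need not hold here. M_12 was the lowest methanol library for 26.3% of all genes.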

How the results depend on the processing

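Against B_10 in methanol induction, the count called higher was 0 and became 1 with the rescaling, with a threshold of 0.5 and without M_48 (0 to 1 when 1 library was left out). The count called lower was 2 and became 0 with the rescaling or with G_3 as reference. The threshold of 0.5 added PDI (PAS_chr1-3_0125) to those called lower. In GM_2 the 2 called higher became 1 with a pseudocount of 5 or G_3 as reference, and the threshold of 0.5 added PDI (PAS_chr4_0844) to them. The 1 called lower became 0 with the rescaling or G_3 as reference and 3 with the threshold of 0.5. That threshold gave 1 higher and 1 lower in G_3, where none was called, and 1 lower in methanol induction against GM_2. No gene had a linear trend under any of the 18 alternatives. The count with curvature was 0 to 1 when 1 library was left out, and 0 under the other settings. The pairs with r of at least 0.7 were 1 by Spearman's rho and 1 to 3 when 1 library was left out, and those of at most −0.7 were 1 without M_12 and M_120 and 2 to 4 when 1 library was left out. With the rescaling Ire1 and PERK (0.720) joined the pairs of at least 0.7, and BiP and PERK (−0.707) those of at most −0.7. PDI (PAS_chr4_0844) then left the latter with both PERK (−0.295) and Sec61 (−0.675). With a straight line over the hours taken out, BiP and PDI (PAS_chr4_0844) reached 0.754 and BiP and PERK −0.733. The cause of these changes was not tested. Over all genes limma called a linear trend up in 4.88% and down in 2.80%, but in 2.57% and 7.31% with the rescaling, whose median over all genes was −0.15, and in 2.10 to 6.57% and 0.745 to 5% when 1 library was left out. Its curvature calls over all genes, 0.588% and 2.06%, were 0 to 1.10% and 0 to 3.08% when 1 library was left out, with 698 to 1247 genes at an unadjusted p under 0.05. No paired analysis was possible because each phase before methanol had 1 library and no condition was replicated. The counting error of a single value was at most 3.30% for PDI (PAS_chr1-3_0125), 2.28% for PERK and 2.18% for Sec61, and smaller for the others.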
